A study of Homo sapiens with 42 samples.

Results

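The main cluster of replication-dependent histone genes lies on the short arm of chromosome 6, and the chromatin loops of this cluster were followed in K562 cells before and during treatment with PMA. Loops were taken as members when either anchor started within the 2200 kb that follow position 26000000 of chromosome 6 in GRCh38. This gave 47 of the 33914 loops in the deposited table, of which 44 had enough counts for a test. K562 is an established human leukemia line, used here as wild type and without any engineered allele. PMA is a phorbol ester that activates protein kinase C, and the labels give its use at 25 nM as induction of megakaryocyte differentiation. The groups were cells at 0 h, 6 h and 72 h of PMA, and the 72 h cells also had their medium renewed along the way. In situ Hi-C ligates neighbouring DNA ends inside fixed nuclei, and each sequenced junction counts as a contact of a pair of genome positions. There were 42 samples, 14 for each of the 3 times, which the labels trace to 4 biological replicates per time, each a pool of many cells of the line.

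Histones are the proteins around which DNA is wound, and the replication-dependent genes supply them in bulk while DNA is being copied. Their mRNAs carry no poly(A) tail and end in a stem-loop bound by SLBP, and their genes gather in a nuclear compartment, the histone locus body, around the coactivator NPAT. The genes sit in clusters, here called islands, parted by long stretches that hold tRNA genes, zinc finger genes, butyrophilin genes and other genes. The files used here hold contacts only, with no measure of expression or of the cell cycle, so megakaryocyte or leukemia markers could not be checked.

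The RefSeq table placed 53 histone genes in the region: 6 of H1, 11 of H2A, 14 of H2B, 10 of H3 and 12 of H4. A gap of over 250 kb started a new island. Island 1 spanned chr6:26017032-26285534 and held 32 genes from H1-1 to H4C8. Island 2 was small, chr6:27132316-27147562, with the 5 genes H2BC11, H2AC11, H2BC12, H4C9 and H2AC12. Island 3 spanned chr6:27807479-27893891 and held 16 genes from H2BC13 to H2BC17. A gap of 846.8 kb separated the first from the second and 659.9 kb the second from the third. The region also held 100 tRNA genes, 0 of them inside an island. Each anchor is a window of 10 kb. Of the 50 distinct anchors in the region, 14 (28.0%) overlapped a histone gene, against 30 of the 220 windows of 10 kb that tile it (13.6%). A tRNA gene lay in 18 anchors (36.0%), against 60 windows (27.3%). Of the 53 histone genes, 28 lay in an anchor.

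By these islands, with a margin of 10 kb, 9 loops joined different islands, 5 lay within an island, 10 ran from an island to other sequence and 23 had no anchor in an island. Loops between islands were 660 to 1800 kb long and loops within an island 50 to 170 kb. The 14 loops with both ends in islands read as a map of histone genes. From the anchor of H3C2 and H2AC4 (chr6:26030001-26040000), loops reached H4C5 (loop13463), island 2 (loop13464) and the island 3 anchor of H4C12, H2AC15 and H2BC15 (loop13465). The H4C5 anchor (chr6:26200001-26210000) also met H2BC4 and H2AC6 (loop13469), island 2 (loop13472) and the H4C12 anchor (loop13473). The anchor at chr6:27130001-27140000, which overlaps H2BC11, H2AC11, H2BC12 and H4C9, took 4 loops, all from island 1. H2BC12 overlaps this window and the neighbouring one (chr6:27140001-27150000), and its promoter lies in the latter. In the neighbouring window, H2BC12 and H2AC12 met H2BC13 and H2AC13 (loop13483) and the anchor of H3C12, H2AC17 and H2BC17 (loop13484).

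Promoter sequences are shown for 6 of the histone genes that sit in the anchors of the 3 loops between islands that fell at 6 h. They are from loop13483 (H2BC12, H2BC13, H2AC13), loop13465 (H3C2, H4C12) and loop13472 (H4C5). Each is the run of 100 bases before the gene's start, 5′ to 3′ on the gene's own strand, from RefSeq (GRCh38.p14). Capitals mark the TATA box as TATAAA, the box named after its letters CCAAT, the core TTTGCAT of the octamer of H2B promoters and GGTCC from the element of H4 promoters. These are marked as read on the gene's own strand. Only CCAAT is also marked from the other strand, where it appears as a capital ATTGG.
H2BC12, chr6:27146859-27146958, minus strand: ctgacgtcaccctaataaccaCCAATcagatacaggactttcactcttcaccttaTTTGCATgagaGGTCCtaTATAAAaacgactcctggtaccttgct
H2BC13, chr6:27807930-27808029, minus strand: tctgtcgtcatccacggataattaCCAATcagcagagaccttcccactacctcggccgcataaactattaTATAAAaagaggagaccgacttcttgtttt
H2AC13, chr6:27808073-27808172, plus strand: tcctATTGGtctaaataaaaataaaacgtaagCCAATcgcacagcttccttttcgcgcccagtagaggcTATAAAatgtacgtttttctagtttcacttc
H3C2, chr6:26032100-26032199, minus strand: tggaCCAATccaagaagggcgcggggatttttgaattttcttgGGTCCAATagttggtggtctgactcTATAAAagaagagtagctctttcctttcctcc
H4C12, chr6:27831561-27831660, minus strand: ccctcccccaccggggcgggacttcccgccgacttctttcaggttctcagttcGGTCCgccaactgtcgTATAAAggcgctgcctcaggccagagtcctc
H4C5, chr6:26204510-26204609, plus strand: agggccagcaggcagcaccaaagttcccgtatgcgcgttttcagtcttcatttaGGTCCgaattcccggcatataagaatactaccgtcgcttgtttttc
TATAAA stood 27 to 32 bases before the start in the first 5 of these genes, counted from the motif's first base, and was not in the 100 bases of H4C5. The H2BC12, H2BC13, H2AC13 and H3C2 stretches held CCAAT, while both H4 stretches lacked it and held GGTCC. In H3C2 the GGTCC overlapped a CCAAT. The octamer core TTTGCAT stood in the H2BC12 stretch.

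The same letters were counted in windows of 300 bases (250 before and 50 after the start) on both strands. RefSeq windows were at hand for 48 of the 53 histone genes, among 35116 in all. TATAAA was in 31 histone windows (64.6%), against 11.5% of all windows, and CCAAT in 41 (85.4%), against 34.6%. CCAAT was in every one of the 6 H1, 10 H2A, 14 H2B and 8 H3 windows but in 3 of 10 of H4. GGTCC was in 9 of 10 H4 windows, against 46.3% of all windows, and TTTGCAT in 8 of 10 H2A and 11 of 14 H2B windows, against 4.46%. AGGNGGC, a short core of the site of the loop anchor protein CTCF, was in 6 histone windows (12.5%) and in 35.9% of all windows. TTTGCAT and GGTCC were chosen after the sequences had been seen. A match is a string of letters and was not tied here to binding.

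Technical replicates were summed into 12 libraries of 736929 to 1472197 contacts over all loops, of which 1878 to 4179 fell in the cluster. Levels are given as normalized counts, contacts of a loop per 1000000 contacts in tested loops after TMM scaling. They hold the local background of the anchor pair as well as the loop, and in a pool of cells a lower count cannot tell fewer cells with the contact from a rarer contact in each cell. Changes are log2 fold changes with their SE, tested with edgeR's quasi-likelihood test and adjusted by Benjamini-Hochberg over all 24132 tested loops. A loop is said to have fallen or risen where the adjusted p was under 0.05. At 72 h, a chi-square test found no difference of replicates 3 and 4 larger than counting noise (1.003 per degree of freedom, p 0.367, against 1.018 to 1.272 for other pairs of a time). They were counted as 1 sample, so means at 72 h have n = 3 and those at 0 h and 6 h n = 4. Replicates 3 and 4 were also the closest pair at 0 h (1.018, p 0.0253) and at 6 h (1.023, p 0.00621, same test). They were kept as separate samples there, and how independent they are is not known. The tests keep the 72 h replicates 3 and 4 as separate libraries. With these 72 h libraries summed, the changed members numbered 6 at 6 h, 13 at 72 h and 8 from 6 h to 72 h. In the lists below, the values of a time are those of replicates 1 to 4 in order. The labels do not say whether replicates came from separate cultures, so p-values measure the spread between these libraries. Loops that share an anchor share that sequence and are not independent.

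Across the cluster, far more loops fell than rose. At 6 h, 5 of 44 tested loops fell and 1 rose, in all 13.6% of them, where 6.41% of all tested loops changed; over all loops 4.07% fell and 2.34% rose. At 72 h against 0 h, 13 fell and 1 rose (31.8%), where 33.6% of all tested loops changed, 16.9% falling and 16.7% rising. The count of changed loops was thus close to that of the whole table, while 29.5% of the members fell and 2.27% rose. From 6 h to 72 h, 7 fell and 0 rose (15.9%), where 20.5% of all loops changed, 9.81% falling and 10.7% rising; at an unadjusted p under 0.05 in edgeR, 8 were lower and 4 higher. Over the 3 times together 19 of the 44 changed, and 36.9% of all loops. The median log2 fold change of the members was -0.14 at 6 h and -0.23 at 72 h, against 0.01 over all loops both times, and 35 of 44 members had a negative value at 72 h. The libraries of 6 h and 0 h did not overlap in 5 members that were lower and 1 that was higher at 6 h, where this was so for 10.7% of all tested loops (5.77% lower, 4.97% higher). At 72 h against 0 h, 11 members were wholly lower and 0 higher, against 28.3% of all loops (14.1% lower, 14.2% higher). From 6 h to 72 h, 5 were wholly lower and 1 higher, against 19.8% (9.43% lower, 10.4% higher). The comparisons at 6 h and 72 h share the 0 h libraries. The count at 6 h rested on single libraries: leaving out replicate 1 of 0 h gave 0 (11 loops at an unadjusted p under 0.05), replicate 3 of 0 h gave 3, and replicate 1 or replicate 2 of 6 h gave 2 each. At 72 h it was 9 without 72 h replicate 2. Within replicates 1 and 2 alone the counts were 2 at 6 h, 10 at 72 h and 3 from 6 h to 72 h, and within replicates 3 and 4 they were 1, 7 and 2.

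**Figure D1:**
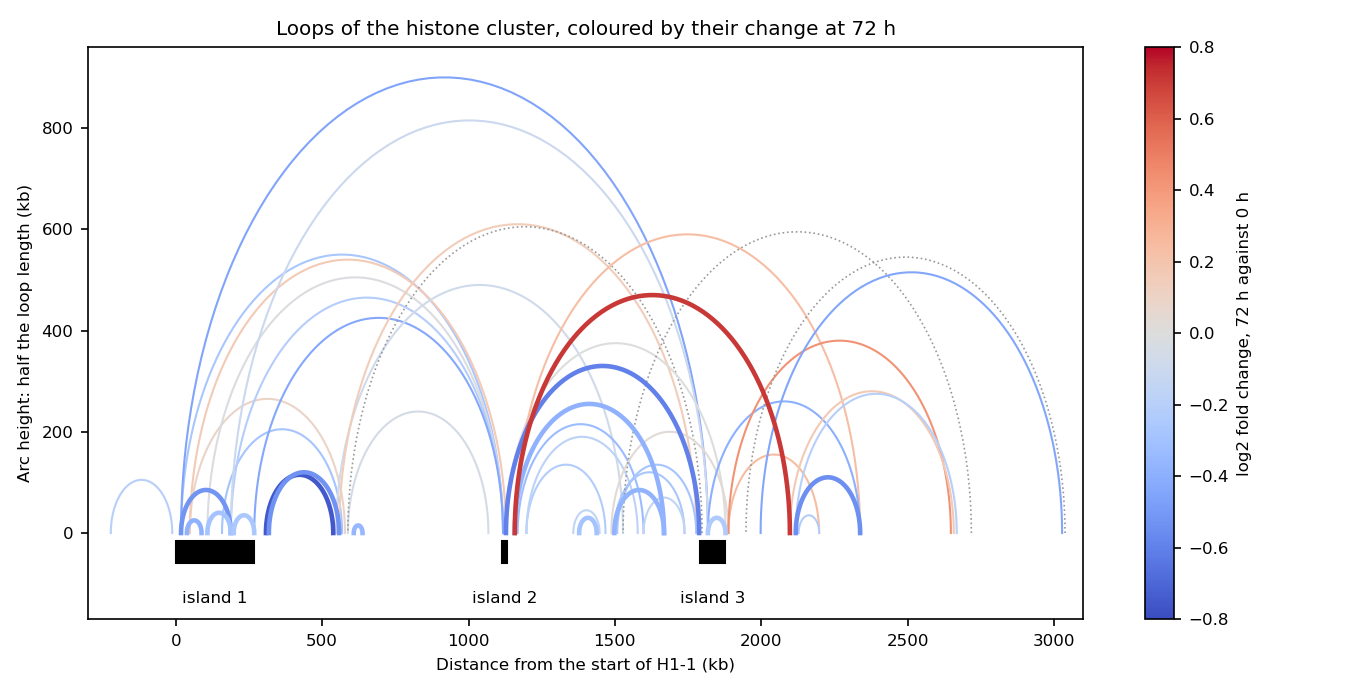
Each arc is a loop, drawn between its anchors along the region (kb from the start of H1-1) up to a height set by its length, and coloured by its log2 fold change at 72 h against 0 h. Thick arcs passed an adjusted p of 0.05, dotted arcs were not tested and black bars are the histone islands; 13 thick arcs are blue (fell) and 1 is red (rose).

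Of the 9 loops that joined different histone islands, 3 fell at 6 h (33.3%) and 0 rose, with a median log2 fold change of -0.45 and a negative value in 8 of 9; 5 had an unadjusted p under 0.05, each with lower values at 6 h. In 4 of the 9, every 6 h library lay below every 0 h library, which was so for 5.77% of all tested loops. The 3 that fell tied H3C2 and H2AC4 to H4C12, H4C5 to island 2, and H2BC12 and H2AC12 to H2BC13 and H2AC13.

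The longest of them, loop13465 (1800 kb), ran from the core histone genes H3C2 and H2AC4 at the start of island 1 (chr6:26030001-26040000) to H4C12, H2AC15 and H2BC15 in island 3 (chr6:27830001-27840000). Its normalized counts were 20.3, 17.1, 15.1 and 13.6 at 0 h, 9.80, 6.54, 11.3 and 3.62 at 6 h and 7.96, 12.05, 12.5 and 15.2 at 72 h. The 6 h libraries all lay below those of 0 h, while at 72 h the highest of the libraries reached into the 0 h range. The mean went from 16.5 ± 2.88 at 0 h to 7.82 ± 3.44 at 6 h and 11.3 ± 3.01 at 72 h. The log2 fold change was -0.97 (SE 0.27, adjusted p 0.0161) at 6 h and -0.45 (SE 0.24, adjusted p 0.140) at 72 h. The fall at 6 h was not past the threshold when 0 h replicate 1 was left out (-0.84, adjusted p 0.108), nor on leaving out replicate 2 (-0.90, 0.0658) or replicate 4 (-0.81, 0.074) of 6 h. It also missed the threshold within replicates 1 and 2 (-1.065, edgeR adjusted p 0.0788) and within replicates 3 and 4 (-0.82, 0.395). The raw counts at 6 h were 10, 7, 8 and 3 contacts.

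Loop13472 (930 kb) tied H4C5, an H4 gene of island 1, to the anchor of 4 genes in island 2 (chr6:27130001-27140000). Its normalized counts were 49.97, 49.4, 33.9 and 32.97 at 0 h, 22.6, 34.6, 26.9 and 22.9 at 6 h and 45.1, 23.1, 38.5 and 38.4 at 72 h. At 6 h, 3 of 4 libraries were below the whole 0 h range and replicate 2 was inside it; the 72 h values overlapped those of 0 h. The log2 fold change was -0.63 (SE 0.18, adjusted p 0.0166) at 6 h and -0.22 (SE 0.16, adjusted p 0.296) at 72 h. The 6 h value missed the threshold on leaving out replicate 1 (-0.52, adjusted p 0.133) or 2 (-0.56, 0.0565) of 0 h, or replicate 1 (-0.55, 0.0795) or 4 (-0.58, 0.0501) of 6 h, and with DESeq2, another count test (-0.66, 0.106).

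Loop13483 (660 kb) joined the H2B and H2A gene pair H2BC12 and H2AC12 of island 2 (chr6:27140001-27150000) to another such pair, H2BC13 and H2AC13, at the near edge of island 3 (chr6:27800001-27810000). It was the strongest loop between islands, and its normalized counts were 88.4, 75, 84.05 and 71.6 at 0 h, 58.8, 60.7, 59.4 and 60.3 at 6 h and 48.7, 44.2, 50.96 and 64.3 at 72 h. Every library at 6 h and at 72 h was below the lowest at 0 h, and the 6 h libraries lay within a narrow range. It fell by 0.41 on the log2 scale at 6 h (SE 0.13, adjusted p 0.0365) and was the only loop between islands to have fallen at 72 h, with -0.60 (SE 0.13, adjusted p 1.01e-04). The call at 72 h was kept without each of the 12 libraries in turn, but not within replicates 3 and 4 (-0.40, edgeR adjusted p 0.104). The call at 6 h was lost without 0 h replicate 1 or 3 or without any one of the 6 h libraries (adjusted p 0.0541 to 0.175). It was also lost with DESeq2 (0.135) and, in edgeR, with total count scaling (0.0644), within replicates 1 and 2 (0.139) and within replicates 3 and 4 (0.402).

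The other 6 loops between islands passed no test against 0 h. Loop13475 (850 kb, H4C8 to island 2) held 21.7, 21.8, 23.8 and 20.5 at 0 h, 7.84, 17.8, 16.98 and 10.9 at 6 h and 10.6, 17.1, 17.7 and 17.9 at 72 h. All 6 h and all 72 h libraries were below the lowest 0 h library, with log2 fold changes of -0.65 (SE 0.23, adjusted p 0.0712) and -0.43 (SE 0.22, adjusted p 0.109); over the 3 times together its adjusted p was 0.0441. Loop13464 (1100 kb, H3C2 and H2AC4 to island 2) held 30.4, 26.6, 20.1 and 13.6 at 0 h, 21.6, 15.9, 15.6 and 8.44 at 6 h and 16.8, 15.1, 21.8 and 23.2 at 72 h, and both later times overlapped 0 h. Loop13468 (1080 kb) ran from a window of island 1 without a histone gene to H2BC12 and H2AC12, and held 18.1, 16.1, 17.6 and 19.3 at 0 h, 11.8, 13.1, 12.7 and 15.7 at 6 h and 19.5, 14.1, 18.7 and 27.7 at 72 h. Its 6 h libraries were all below 0 h, and its 72 h libraries spread over both. Its log2 fold change was -0.37 at 6 h (SE 0.24, adjusted p 0.387).

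Loop13470 (1010 kb, H2BC4 and H2AC6 to island 2) held 30.4, 24.7, 17.6 and 28.4 at 0 h, 22.6, 21.5, 11.3 and 24.1 at 6 h and 21.2, 22.1, 26 and 33.03 at 72 h. Loop13473 (1630 kb, H4C5 to the H4C12 anchor) held 21, 18.04, 8.78 and 11.4 at 0 h, 16.7, 10.3, 8.49 and 7.24 at 6 h and 15.04, 10.04, 18.7 and 14.3 at 72 h. In both the times overlapped, and the log2 fold changes at 6 h were -0.32 (SE 0.21) and -0.45 (SE 0.26). Loop13484 (750 kb), from H2BC12 and H2AC12 to the H3C12 end of island 3, was the only one with a positive value at 6 h. It held 49.97, 44.6, 33.9 and 38.7 at 0 h, 55.9, 50.5, 45.3 and 44.6 at 6 h and 50.4, 20.1, 53.04 and 46.4 at 72 h, so that 72 h replicate 2 stood far below the other 72 h libraries and the times overlapped. It started from the same anchor as loop13483, and its log2 fold change at 72 h was -0.0043 (SE 0.12) where loop13483 fell.

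**Figure D2:**
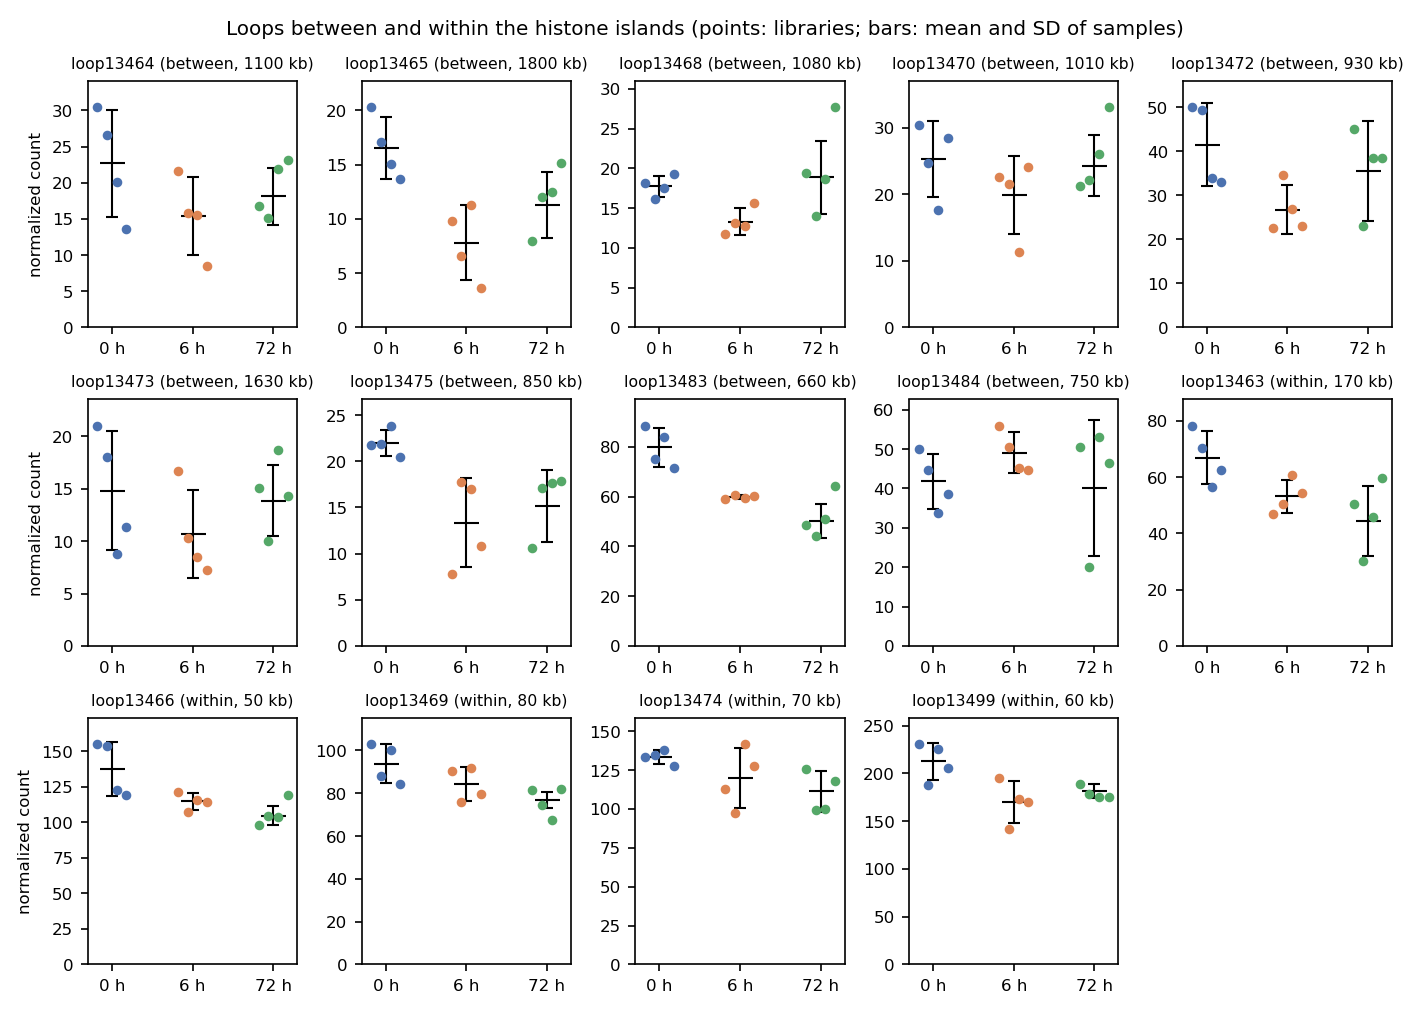
Normalized counts (contacts per 1000000 in tested loops) of the 9 loops between islands and the 5 loops within an island at 0 h, 6 h and 72 h; points are libraries and bars the mean and SD of samples (n = 4, 4 and 3). In loop13483 all 6 h and 72 h points lie below the 0 h points, and in loop13465 all 6 h points do.

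At 72 h, 1 of the 9 loops between islands had fallen and 0 had risen, the median log2 fold change against 0 h was -0.22, and 2 had an unadjusted p under 0.05. Against 6 h the median was 0.31 with 7 of 9 values positive, but 0 passed the adjusted threshold (edgeR) and 2 had an unadjusted p under 0.05. Leaving out 72 h replicate 2 gave 2 that rose, and leaving out 6 h replicate 2 gave 1. The value at 72 h differed between the replicates that were sequenced differently: replicates 1 and 2 were 3 technical replicates each, and replicates 3 and 4 were 2, sequenced in 2 runs. Within replicates 1 and 2 the median was -0.58, 2 of 9 fell and 9 of 9 were negative. Within replicates 3 and 4 it was 0.31, 0 of 9 fell (1 at an unadjusted p under 0.05) and 3 of 9 were negative. The change was higher in replicates 3 and 4 for all 9 loops; edgeR's test of the interaction passed for 0 of 9 (smallest adjusted p 0.730) and had an unadjusted p under 0.05 for 4. At 6 h the medians within these batches were -0.51 and -0.36, with 1 and 0 of 9 falling (5 and 0 at an unadjusted p under 0.05).

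Changes over the whole table differed with loop length. Over all 12 libraries, the loops between islands had lower median values than tested loops of their length elsewhere. Outside the cluster, 9287 loops had lengths of 660 to 1800 kb, and 3479 of them had enough counts for a test. A loop low at 0 h could enter the tested set through higher counts later, and how far this moved the values was not tested. The tested loops of this length had a median log2 fold change of 0.13 at 6 h and 0.30 at 72 h. Of these loops 0.402% fell at 6 h and 2.76% at 72 h, while 2.67% and 25.1% rose. An offset for length in each library was fitted on the tested loops of all lengths. With it, 4 of the 9 loops between islands fell at 6 h, with a median of -0.55. They were the 3 named above and loop13475 (-0.77, adjusted p 0.0327). At 72 h 5 of 9 fell with that correction, with a median of -0.54 and a negative value in all 9. These were loop13483 (-0.78, adjusted p 6.14e-07), loop13465 (-0.91, 0.00185), loop13475 (-0.68, 0.0099), loop13472 (-0.51, 0.0105) and loop13464 (-0.61, 0.0161). Over all loops the correction left 2.29% falling at 6 h and 15.7% at 72 h. The number of loops between islands that fell at 72 h was thus 1 without and 5 with the correction, and the split of changes over the whole cluster with it was 12 fallen and 0 risen at 72 h. Within replicates 3 and 4 alone, without the correction, the median of the 9 loops at 72 h was 0.31. The correction was not run within either pair of replicates or with a library left out.

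**Figure D3:**
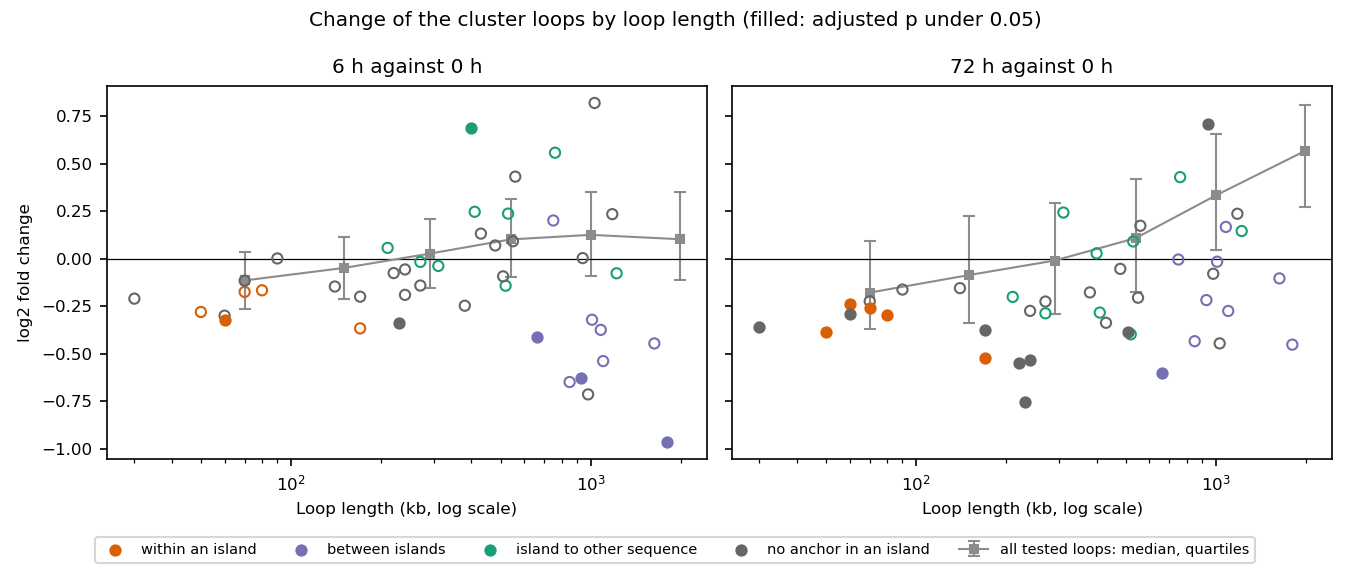
Log2 fold change of each tested cluster loop at 6 h and at 72 h against 0 h, by loop length on a log axis; filled points passed an adjusted p of 0.05, and grey squares with bars are the median and quartiles of all tested loops by length. Loops between islands lie below the grey line at 6 h with 1 exception, while all loops of that length elsewhere have a median of 0.13.

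All 5 short loops within islands fell at 72 h against 0 h, with a median log2 fold change of -0.29, and 1 of 5 fell at 6 h, with a median of -0.28. With 72 h replicates 3 and 4 summed into 1 library, 4 of 5 fell at 72 h, and loop13474 missed the threshold (adjusted p 0.0556). Against 6 h 0 of 5 passed the adjusted threshold, and 0 had an unadjusted p under 0.05. Loops of 50 to 170 kb outside the cluster had a median of -0.13 at 72 h, and 29.8% of the 6345 tested fell. With the length correction, 1 of 5 loops within islands fell at 72 h (median -0.20) and 0 of 5 at 6 h.

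The largest change among them was in loop13463 (170 kb), which joined H3C2 and H2AC4 to H4C5 in island 1. It held 78.2, 70.3, 56.5 and 62.5 at 0 h, 47.1, 50.5, 60.9 and 54.3 at 6 h and 50.4, 30.1, 45.8 and 59.8 at 72 h. Replicate 2 was the lowest of the 72 h libraries, and replicate 4 lay within the 0 h range. The log2 fold change was -0.52 (SE 0.14, adjusted p 0.00177) at 72 h, and it remained past the threshold with the length correction (-0.49, adjusted p 0.00402) but not within replicates 3 and 4 (-0.16, 0.619).

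Loop13466 (50 kb) joined H1-2, a linker histone gene, to H4C3 and the testis linker histone gene H1-6, and held 155, 154, 123 and 119 at 0 h, 122, 107, 116 and 115 at 6 h and 98.2, 104, 104 and 119.6 at 72 h. At 72 h, 3 of 4 libraries were below the 0 h range and replicate 4 stood at its lower end, and the log2 fold change was -0.38 (SE 0.11, adjusted p 0.00238). With the length correction it was -0.23 (adjusted p 0.068), and within replicates 3 and 4 it was -0.11 (0.642). Loop13499 (60 kb), between the H4C12 and H3C12 anchors of island 3 (chr6:27830001-27840000 and chr6:27890001-27900000), had the most contacts of any member, 2248 over the 12 libraries. It held 230.3, 188, 226 and 206 at 0 h, 195, 142, 173 and 170.1 at 6 h and 189, 179, 176 and 175 at 72 h. Its 0 h libraries were above those of both later times except replicate 2, which overlapped them.

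Loop13499 was the only loop within an island to have fallen at 6 h, with -0.32 (SE 0.10, adjusted p 0.0226); at 72 h it was -0.24 (SE 0.09, adjusted p 0.0331). With the length correction it was -0.21 (adjusted p 0.173) at 6 h and -0.11 (0.325) at 72 h. Its 6 h value also missed the threshold with DESeq2 (0.0663), within either pair of replicates (0.194 and 0.161), and without 0 h replicate 1 (0.119), 0 h replicate 3 (0.0667) or 6 h replicate 2 (0.150). Loop13469 (80 kb, H2BC4 and H2AC6 to H4C5) held 103, 88.3, 100.4 and 84.1 at 0 h, 90.2, 75.7, 91.98 and 79.6 at 6 h and 81.4, 74.3, 67.6 and 82.1 at 72 h. Loop13474 (70 kb, H2BC8 and H2AC8 to H4C8) held 133, 135, 138 and 127 at 0 h, 113, 97.2, 142 and 128 at 6 h and 126, 99.4, 99.8 and 118 at 72 h. In both, each 72 h library was below the lowest 0 h library, and the log2 fold changes were small, -0.29 (SE 0.12, adjusted p 0.043) and -0.26 (SE 0.11, adjusted p 0.0496). Loop13469, loop13474 and loop13499 missed the threshold at 72 h in 10, 12 and 10 of 23 other settings, among them DESeq2 (adjusted p 0.116, 0.117 and 0.0797). Without 72 h replicate 2 or 3, or without 0 h replicate 1 or 3, 2 of the 5 loops within islands had fallen at 72 h. Within replicates 1 and 2 the median of the 5 loops at 72 h was -0.31 with 2 falling, and within replicates 3 and 4 it was -0.27 with 1 falling.

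Read by anchor, all loops had negative values at 6 h in 6 of the 8 histone anchors with 2 or more loops, and at 72 h in 7 of 8; among the 16 other such anchors this was so for 8 at each time. The exceptions held loop13484 or loop13468, at the H2BC12 and H2AC12 window and at the H3C12 end of island 3. At the island 2 anchor of H2BC11, H2AC11, H2BC12 and H4C9, the 4 loops had log2 fold changes of -0.65 to -0.32 at 6 h and -0.43 to -0.02 at 72 h. At the H4C5 anchor the 4 loops had -0.63 to -0.17 at 6 h and -0.52 to -0.10 at 72 h. The 4 loops of the H4C12, H2AC15 and H2BC15 anchor, with loop13500 among them leading out of the islands to ZSCAN31, had -0.97 to -0.14 and -0.45 to -0.10. The 3 loops of H3C2 and H2AC4 had -0.97 to -0.37 and -0.52 to -0.27. Several of these loops are counted at both their anchors. The 3 loops of the window just beyond the last gene of island 3 (chr6:27900001-27910000), which holds 2 tRNA genes and no histone gene, had -0.04 to 0.68 at 6 h and 0.03 to 0.43 at 72 h. Only loop13493 among them passed the threshold at 6 h, and none did at 72 h (edgeR adjusted p 0.186 to 0.939). Of the 13 loops with a histone gene at both anchors, 4 fell at 6 h and 6 at 72 h, with 13 of 13 values negative at 72 h, and 0 rose. These are 30.8% and 46.2% fallen, where 4.07% and 16.9% of all tested loops fell; the 13 are all loops within or between islands already counted. Of the 13 values at 72 h, those of loop13484 (-0.0043) and loop13470 (-0.016) were close to 0. Each of these was negative in 16 of 23 other settings. Within replicates 3 and 4, 3 of the 9 loops between islands were negative at 72 h.

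Among the tested members, the largest fall at 72 h against 0 h lay outside the islands, in the tRNA gene stretch that follows island 1. Loop13476 (230 kb, chr6:26320001-26330000 to chr6:26550001-26560000), with 3 and 4 tRNA genes at its anchors, held 176, 133, 154 and 150.1 at 0 h, 121, 103, 123 and 144 at 6 h and 91.1, 73.3, 98.8 and 99.1 at 72 h. All 72 h libraries were below all those of 0 h and of 6 h, and the 6 h libraries overlapped those of 0 h. The log2 fold change was -0.34 (SE 0.11, adjusted p 0.0318) at 6 h, -0.75 (SE 0.11, adjusted p 5.65e-09) at 72 h and -0.41 (SE 0.12, adjusted p 0.00537) from 6 h to 72 h. The fall at 72 h passed the threshold in 23 of 23 other settings. Its 6 h value missed the threshold without 0 h replicate 1 or 3 or 6 h replicate 1 or 2 (adjusted p 0.0557 to 0.225), and that from 6 h to 72 h without 72 h replicate 2 (-0.33, 0.0521).

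The neighbouring loop13477 (240 kb, chr6:26330001-26340000 to chr6:26570001-26580000), with 2 and 3 tRNA genes, held 187, 151, 174 and 164 at 0 h, 146, 145, 148.6 and 156 at 6 h and 120.3, 111, 122 and 114 at 72 h. Its 72 h libraries were below all others. It was -0.19 (SE 0.10, adjusted p 0.265) at 6 h and -0.53 (SE 0.10, adjusted p 9.26e-06) at 72 h, the latter also past the threshold in 23 of 23 settings. Loop13471 (410 kb) led from the H2B gene H2BC5 in island 1 to the window beside the far anchor of loop13477 (chr6:26580001-26590000). It was -0.53 (SE 0.16, adjusted p 0.0122) from 6 h to 72 h, which rested on 6 h replicate 4 (without it -0.38, adjusted p 0.123), and -0.28 (SE 0.17, adjusted p 0.177) against 0 h.

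At the far end of the region, loop13506 (220 kb, chr6:28130001-28140000 to chr6:28350001-28360000) joined the zinc finger gene ZSCAN16 to ZSCAN31 and ZKSCAN3. It held 135, 141, 172 and 146 at 0 h, 148, 107, 136 and 169 at 6 h and 105, 87.3, 116 and 90.2 at 72 h. The 72 h libraries were all below those of 0 h and the 6 h libraries overlapped both. It was -0.08 (SE 0.11, adjusted p 0.746) at 6 h, -0.55 (SE 0.11, adjusted p 2.33e-05) at 72 h and -0.47 (SE 0.11, adjusted p 9.51e-04) from 6 h to 72 h, so that its fall was past the threshold only at 72 h. The fall against 0 h passed the threshold in all 23 other settings, and that from 6 h to 72 h in 22, missing it within replicates 1 and 2 (-0.40, adjusted p 0.0892).

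The remaining falls at 72 h outside the islands were smaller. Loop13482 (30 kb), with an end of the zinc finger gene ZNF322 in its second anchor, had means of 149.1 ± 13.7 at 0 h, 129.7 ± 9.70 at 6 h and 117 ± 7.31 at 72 h and a log2 fold change of -0.36 (SE 0.10, adjusted p 0.00375) at 72 h. Loop13494 (170 kb, tRNA genes at both anchors) was -0.38 (SE 0.11, 0.00615), and loop13485 (510 kb, which ends at the same anchor) was -0.39 (SE 0.13, 0.0134). Loop13492 (60 kb, between the bodies of ZNF391 and ZNF184) was -0.29 (SE 0.11, 0.0256). With the length correction, loop13482 and loop13492 were past the threshold no longer (-0.13 and -0.16, adjusted p 0.302 and 0.229). Loop13492 was not without 0 h replicate 3 or 72 h replicate 3 or 4 (0.0519 to 0.136), nor loop13485 without 72 h replicate 2 (-0.28, 0.11). Loop13488 (430 kb, downstream of island 2) passed only from 6 h to 72 h, with -0.47 (SE 0.16, adjusted p 0.0246); without 6 h replicate 2 it was -0.29 (0.252), and it missed the threshold also without 6 h replicate 4 or 72 h replicate 1 or 2 (0.0546 to 0.0713). Of the 21 tested loops with no anchor in an island, 7 fell and 1 rose at 72 h, in all 38.1%, which is near the 33.6% of all tested loops; 33.3% fell, against 16.9% of all.

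Loops that rose were few and thinly counted. Loop13486 (940 kb), from a window with 1 tRNA gene downstream of island 2 (chr6:27170001-27180000) to chr6:28110001-28120000, was the only member to rise at 72 h. It had means of 8.73 ± 4.54 at 0 h, 8.38 ± 1.71 at 6 h and 15.1 ± 3.33 at 72 h. The 72 h libraries were above all those of 6 h, and 0 h replicate 3 lay inside the 72 h range. The log2 fold change at 72 h was 0.71 (SE 0.27, adjusted p 0.0279), and with the length correction it was 0.45 (adjusted p 0.196). It missed the threshold without 0 h replicate 1, 2 or 4 or without 72 h replicate 2 or 4 (adjusted p 0.0667 to 0.118). Its raw counts were 12, 7, 12 and 4 at 0 h and 11, 9, 5 and 6 at 6 h. At 72 h they were 13, 18, 14 and 19. Loop13486 could thus pass the count filter through the time where it was high. How far this moved its values was not tested.

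Loop13493 (400 kb) was the only member to rise at 6 h. It ran from a window with 3 tRNA genes (chr6:27500001-27510000) to the margin of island 3 (chr6:27900001-27910000), and held 17.4, 18.04, 17.6 and 10.2 at 0 h, 33.3, 25.2, 24.1 and 24.1 at 6 h and 17.7, 10.04, 21.8 and 16.1 at 72 h. All 6 h libraries were above those of both other times. It was 0.68 (SE 0.21, adjusted p 0.0323) at 6 h, -0.66 (SE 0.21, adjusted p 0.0173) from 6 h to 72 h and 0.03 (SE 0.23, adjusted p 0.939) at 72 h. The rise at 6 h missed the threshold with the length correction (0.62, adjusted p 0.071) and on leaving out replicate 1 (0.55, 0.171) or 2 (0.72, 0.0576) of 6 h, or replicate 1 (0.73, 0.0715) or 4 (0.56, 0.133) of 0 h. The fall from 6 h to 72 h missed it on leaving out replicate 1 of 6 h (-0.54, 0.106) or replicate 2 of 72 h (-0.51, 0.0993).

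Loop13504 (1030 kb), from chr6:28010001-28020000 to the olfactory receptor gene OR2W1 outside the region, held 8.69, 5.70, 5.02 and 10.2 at 0 h, 25.5, 11.2, 5.66 and 14.5 at 6 h and 3.54, 6.02, 6.24 and 4.46 at 72 h. Its 6 h libraries spread widely, and replicate 3 at 6 h overlapped the other times. It was 0.82 (SE 0.29, adjusted p 0.0649) at 6 h and -1.26 (SE 0.30, adjusted p 0.00106) from 6 h to 72 h, the steepest fall among the tested members in that comparison. It rested on 106 contacts over the 12 libraries, and passed the threshold in the 19 of 19 other settings that gave it a p. Settings that gave it no p are not a check. Its raw counts were 26, 12, 4 and 12 at 6 h and 4, 6, 6 and 5 at 72 h. Loop13504 could thus pass the count filter through the time where it was high. How far this moved its values was not tested.

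**Figure D4:**
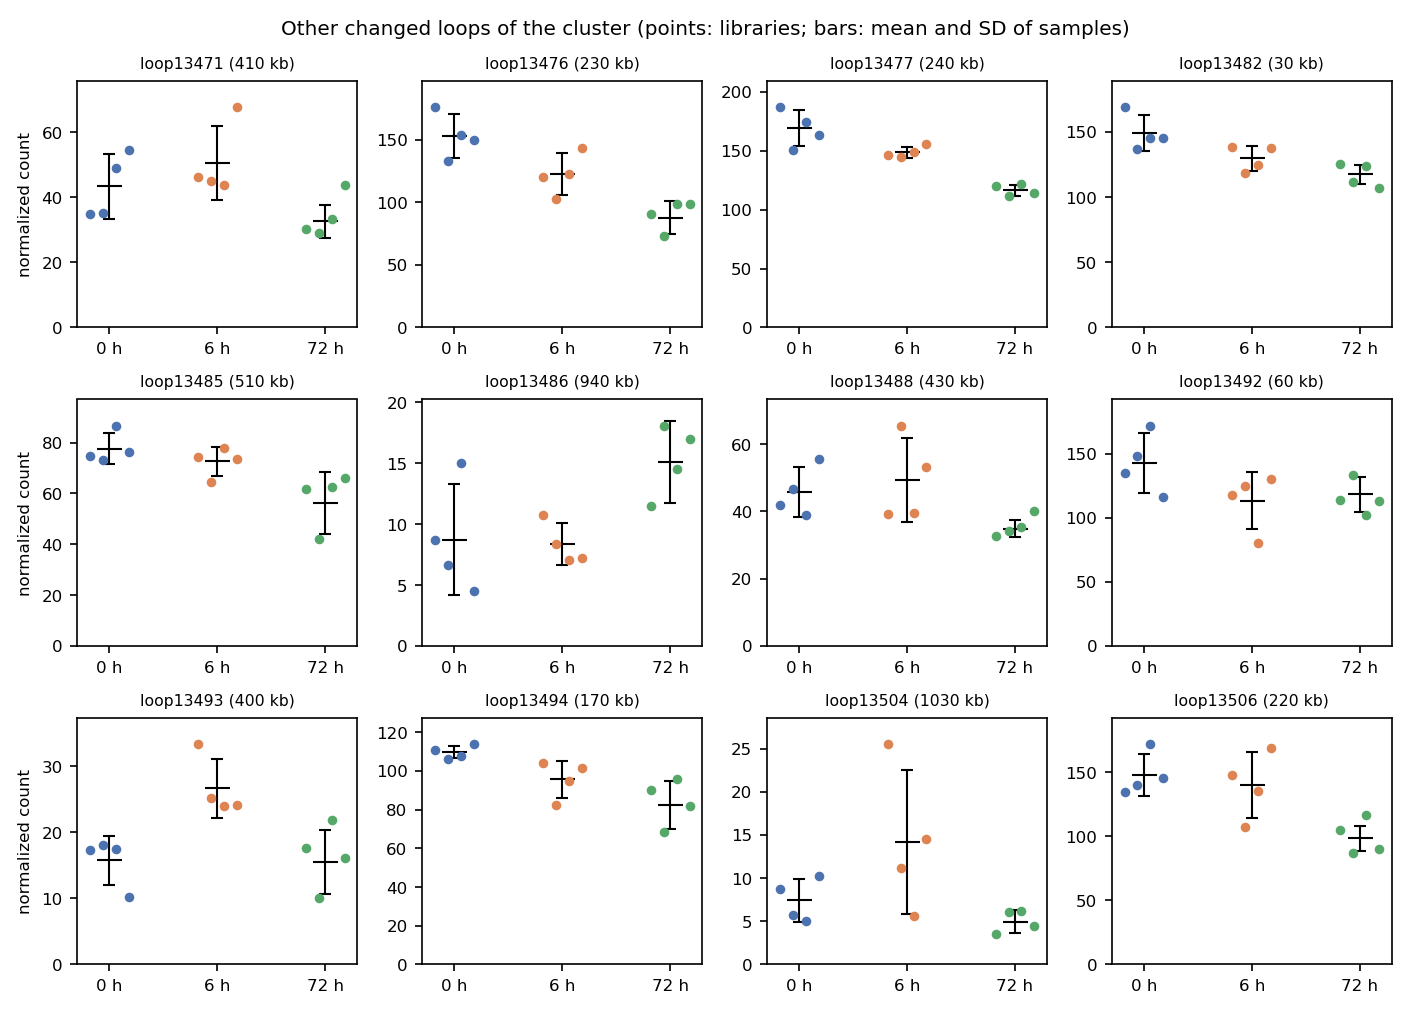
Normalized counts (contacts per 1000000 in tested loops) of 12 further members that passed the test in at least 1 comparison, at 0 h, 6 h and 72 h; points are libraries and bars the mean and SD of samples. In loop13476 and loop13477 all 72 h points lie below all others, and in loop13493 all 6 h points lie above all others.

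Strong loops that passed no test were found alongside those that fell. Loop13480 (480 kb), from the end of ABT1, a gene for an activator of basal transcription, to a window before island 2, had means of 122 ± 10.97 at 0 h, 128 ± 7.498 at 6 h and 117 ± 2.63 at 72 h and a log2 fold change of -0.05 (SE 0.11, adjusted p 0.729) at 72 h. Loop13508 (70 kb, at ZKSCAN8) had means of 136 ± 22.95 at 0 h, 125 ± 14.8 at 6 h and 117 ± 7.75 at 72 h and -0.22 (SE 0.11, 0.0924), and loop13495 (240 kb) -0.27 (SE 0.12, 0.0691). Loop13489 (270 kb) and loop13498 (140 kb) had -0.23 (SE 0.13) and -0.15 (SE 0.13). The other 13 tested members had mean normalized counts of 10.1 to 65.3 and log2 fold changes of -0.40 to 0.43 at 72 h, and none passed the adjusted threshold in any comparison (edgeR); 4 had an unadjusted p under 0.05 in at least 1. The 3 members not tested were loops of 1090 to 1210 kb with too few contacts.

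As a share of all loop contacts of a library, with no TMM scaling, the cluster held 0.284%, 0.265%, 0.288% and 0.267% at 0 h, 0.260%, 0.243%, 0.255% and 0.261% at 6 h and 0.231%, 0.216%, 0.237% and 0.238% at 72 h. The shares of both later times were all below the lowest at 0 h. The means were 0.276% ± 0.0115 (SD, n = 4), 0.255% ± 0.00833 (n = 4) and 0.229% ± 0.0109 (n = 3), which is 0.923 and 0.828 times the value at 0 h. Loops within islands went from 0.0608% ± 0.00366 to 0.0523% ± 0.00421 and 0.0501% ± 0.00265. Loops between islands went from 0.0266% ± 0.00352 to 0.0209% ± 0.00175 and 0.0220% ± 0.00453, and at 72 h their range, 0.0172% to 0.0273%, covered that of 6 h and overlapped that of 0 h. Loops from an island to other sequence held 0.0248% ± 0.00157, 0.0280% ± 0.000731 and 0.0235% ± 0.0025, with the 6 h libraries above all others. Shares are a description and carry no test.

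**Figure D5:**
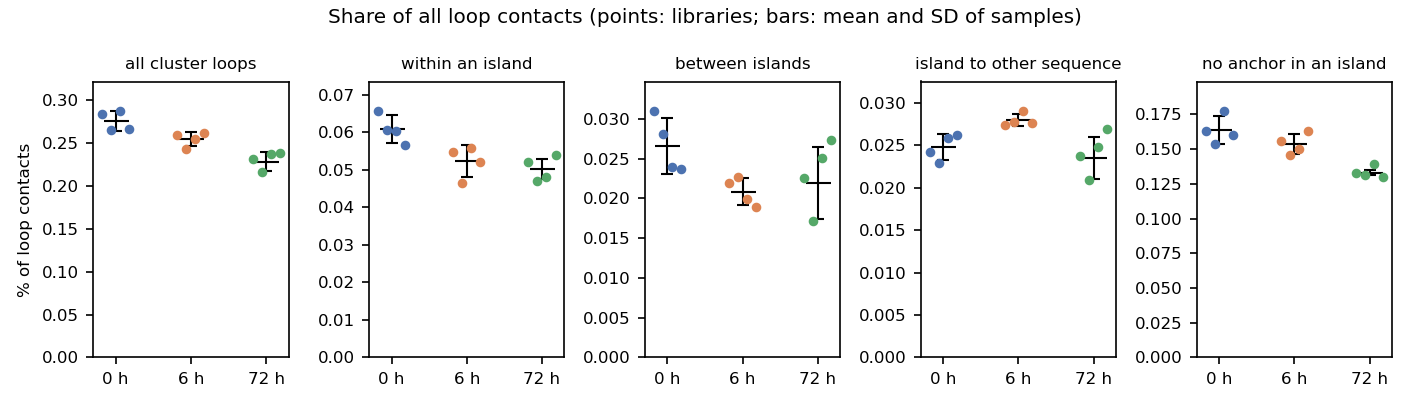
Percent of all loop contacts in each library that fell in the cluster and in its 4 classes of loops at 0 h, 6 h and 72 h; points are libraries and bars the mean and SD of samples. All 6 h and 72 h shares of the cluster lie below the lowest 0 h share, and loops between islands spread from 0.0172% to 0.0273% at 72 h.

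The authors' deposited table classed 1 of the 47 members as lost, 46 as static and 0 as gained. The lost loop was loop13476, with a log2 fold change of -0.69 at 72 h and an adjusted p of 5.1e-05 in the authors' deposited table. An adjusted p under 0.05 was given there for 4 members: loop13476, loop13477 (0.00463), loop13506 (0.00471) and the loop between islands loop13483 (0.0377, with -0.50 at 72 h and -0.17 at 6 h). That table lists 1 adjusted p per loop and how its fold changes were made is not stated. Of the 38 members with a fold change there, 35 had the same sign at 72 h as in the edgeR fit.

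Genes that work on histone genes elsewhere in the genome had few loops in the table. Of 15 factors of histone expression, 6 had an end in an anchor of a tested loop, and of these 9 loops 1 fell and 0 rose at 6 h, and 3 fell and 1 rose at 72 h. Of all tested loops 6.41% and 33.6% changed at these times, so counts among 9 loops say little. An anchor with an end of NPAT, the coactivator of histone genes, had 2 loops, of which the longer (420 kb) had means of 53.0 ± 4.79, 47.9 ± 8.31 and 36.9 ± 3.72 and fell, with -0.49 (SE 0.15, adjusted p 0.00612) at 72 h; the other was -0.40 (SE 0.18, 0.075). At HINFP, the factor that binds H4 promoters, the loop was -0.31 (SE 0.11, 0.0497) at 6 h and -0.17 (SE 0.10, 0.171) at 72 h. At E2F1, a cell cycle transcription factor, one of 2 loops was -1.04 (SE 0.27, 0.00122) at 72 h, and at the cyclin gene CCNE2 the loop was -0.33 (SE 0.12, 0.0218). At LSM11, a subunit of the U7 particle that cuts histone mRNA ends, one loop rose at 72 h, with 0.62 (SE 0.18, 0.00426). Of 20 genes of the smaller histone loci, 3 had tested loops, all at 1 anchor on chromosome 1 with H2AC20, H2AC21 and H2BC21; 1 of its 2 loops fell at 72 h (-0.49, SE 0.16, 0.0101). Of 29 other genes in or beside the region, 9 had 11 tested loops. Of these loops 4 fell and 0 rose at 72 h, among them those of ZNF322 and ZSCAN16 given above. Over all tested loops 33.6% changed, 16.9% falling and 16.7% rising, and counts among 11 loops say little.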

How the data were processed

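The authors deposited, per the file headers, 1 table of loops with raw contact counts per technical replicate (30 columns), log2 fold changes, adjusted p-values and a class; anchor positions, the other deposited values, were counted from 1 here. Juicer 1.5.6, DESeq2 and hg38 are named per the submitters' processing notes; loop calling, and the handling of reads that match several near-identical histone genes, are not given in the sources used here. Technical replicates were summed into 12 libraries (the columns of replicates 3 and 4 hold both sequencing runs) and fitted in edgeR 4.0.16 (R 4.3.3): TMM scaling, filterByExpr (minimum count 10, total 15), quasi-likelihood test without covariate, Benjamini-Hochberg adjustment, prior count 2. Each SE was taken as |log2 fold change| over the square root of the test's F value. The test was tried on simulated data. Tested members held 106 to 2248 contacts; a single count of 30 has a 95% Poisson interval of 20.2 to 42.8, for counting error only. Members, lists and alternatives were chosen with earlier results of these data known. The loops named are those past the threshold, those with both anchors in islands and the 5 others with the highest counts. Same-numbered replicates were not treated as pairs (correlations 0.015 to 0.124 of their deviations). The alternatives comprised DESeq2 1.42.0, scaling by relative log expression or total count, a filter at a count of 20 or none, a loess offset on log10 length (span 0.3), a replicate block, a batch term, batches alone, summed 72 h replicates 3 and 4, stricter thresholds and leaving out each library. Genes and promoters are from RefSeq (GRCh38.p14), which gives genes without strand; genes were placed by either end or, for histone and tRNA genes, by overlap.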

Additional observations from a re-analysis of the deposited data

Results flagged for a closer look

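In 4 of 72 groups of 4 libraries (the named loops that were tested and the sets whose share of contacts was measured, each at 0 h and at 6 h), 1 library stood apart from the other 3 by Dixon's criterion, where chance gives about 1 in 20 groups, or 3.6 here. Loop13471, from H2BC5 to the tRNA gene stretch after island 1, had a normalized count of 67.56 in 6 h replicate 4, against 43.87 to 46.08 in the other 6 h libraries. Loop13498, between tRNA gene windows before island 3, had 86.86 in 6 h replicate 4, against 58.02 to 61.77. Loop13493, at the margin of island 3, had 10.23 in 0 h replicate 4, against 17.38 to 18.04, and 33.34 in 6 h replicate 1, against 24.06 to 25.23. The same loop changed in opposite directions in the early and the late interval: its log2 fold change from 6 h to 72 h was -0.66 (edgeR, adjusted p 0.0173), after 0.68 from 0 h to 6 h. Both changes use the same 6 h libraries, so high values at 6 h alone would give both. Without 6 h replicate 1 neither passed the threshold (0.55 and -0.54, edgeR adjusted p 0.171 and 0.106).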

How the results depend on the processing

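The counts of changed loops moved with the settings, and the causes were not tested unless the setting itself shows them. DESeq2 gave 0 at 6 h (11 at an unadjusted p under 0.05; 14 of 44 had no adjusted p), 8 at 72 h, 4 from 6 h to 72 h and 8 over all times, where edgeR gave 6, 14, 7 and 19. A threshold of 0.01 gave 0 (16 at an unadjusted p under 0.05 in edgeR), 8 and 3, and a fold change of at least 1.5 gave 3, 3 and 2. A minimum count of 20 gave 9 at 72 h, with 35 members tested. Within replicates 1 and 2 the counts were 2 at 6 h, 3 from 6 h to 72 h and 11 over all times, and within replicates 3 and 4 they were 1, 7 (72 h), 2 and 6. Leaving out 1 library gave 0 to 6 at 6 h, 9 to 15 at 72 h, 6 to 8 from 6 h to 72 h and 14 to 19 over all times. With the replicate block, 9 loops changed at 6 h, 14 at 72 h and 8 from 6 h to 72 h. Whether same-numbered replicates belong together was not settled. The correlations of their deviations were small but all positive (0.015 to 0.124). The share of contacts in the cluster stayed at 0.912 to 0.938 of its 0 h value at 6 h and 0.818 to 0.850 at 72 h without single libraries. Over 44 values of single loops and up to 23 settings each, 862 stayed on the same side of the threshold. Another 122 lost the call, 13 gained it and 0 turned sign while called. Values not past the threshold in either fit count among the 862 even where their sign turned. Loop13484 at 72 h, for one, was negative in 16 of 23 settings, with log2 fold changes of -0.40 to 0.42. The median of loops between islands was -0.58 to -0.35 at 6 h but -0.58 to 0.31 at 72 h, the latter positive within replicates 3 and 4. Loops under about 20 normalized counts rest on few contacts, so that a difference of the size of those reported may not be detectable there.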
